A study of Mus musculus with 12 samples.

Results

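The DNA replication machinery is described here through 51 genes, taken by symbol from a fixed list of replication factors out of the 24421 genes in each of the 2 deposited expression tables, in which all 51 were present. The libraries are RNA sequencing of mouse tissue in 4 groups of 3: non-tumour cortex of wild-type genotype; ependymoma of genotype ZFTA-RELA (the control tumours), named for the fusion of ZFTA with RELA, the gene of an NF-kappa-B subunit; the same tumour with overexpression of a human variant of ETV5, an ETS family transcription factor; and the same tumour with overexpression of a human variant of NPY, the precursor of neuropeptide Y. All 3 tumour groups thus carry the fusion, and the cortex does not. The labels used here give no strain, age, promoter or method of tumour induction, and do not say whether the replicates of a group came from separate animals, so every p-value here reflects variation among these libraries alone, which may be technical.

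DNA is copied in steps with a fixed order. The origin recognition complex, Cdc6 and Cdt1 load the ring of Mcm2 to Mcm7 onto origins, and geminin (Gmnn) blocks loading again after S phase has begun. Cdc45 and the GINS complex turn the ring into an active helicase, polymerase alpha with its primase lays primers, and polymerases epsilon and delta extend them with the sliding clamp PCNA, which the RFC complex loads. RPA coats single strands, Fen1 and Lig1 join the Okazaki fragments, ribonucleotide reductase and thymidylate enzymes supply the nucleotides, and chaperones repackage the new DNA. Many of these genes are transcribed around the entry into S phase under E2F factors, and neurons of the adult cortex do not divide.

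Levels are CPM (reads of a gene scaled to the total reads of its library), from 5962376 to 7444467 reads per cortex library, 6266613 to 9443466 per control tumour, 6691146 to 11291057 per ETV5-labelled tumour and 8214523 to 10481943 per NPY-labelled tumour. Changes are log2 fold changes with a standard error (SE) from limma, fitted to log2(deposited value + 1), with n = 3 against 3, and a gene is called when its Benjamini-Hochberg adjusted p, over all genes tested, is under 0.05. The offset of 1 understates changes of genes with few reads. The ratio of CPM between tumour and cortex lies above the fitted scale by 0.17 (log2) for control tumours, 0.18 for ETV5-labelled and 0.14 for NPY-labelled tumours, since the fit uses size factors and CPM uses read totals. Against control tumours this shift was 0.011 for ETV5-labelled and -0.085 for NPY-labelled tumours, so fitted NPY changes lie above the CPM ratios. All 51 members passed the filter on low values in each comparison. The tables count mouse genes, and whether reads of the overexpressed human transcripts were counted at them was not tested: mouse Etv5 was at 401 to 474 CPM in the ETV5-labelled tumours and 264 to 322 CPM in the controls, and mouse Npy was at 2.19 to 15.9 CPM in the NPY-labelled tumours and 21.5 to 46.1 CPM in the controls. The groups are therefore called by their labels. Counts at Rela, 18.5 to 19.1 CPM in cortex and 73.9 to 103.9 CPM in control tumours, do not separate the mouse gene from the fusion.

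Nearly the whole machinery was higher in control tumours than in cortex. Of the 51 members, 49 were called higher and 0 lower, where 35.7% of the 14621 genes tested were called higher and 36.2% lower. At least 2-fold higher were 42 members (24.2% of all genes), 32 passed 4-fold, 19 passed 8-fold and 7 passed 16-fold. The median log2 fold change was 2.39 over the members and -0.0032 over all genes, and every control tumour lay above every cortex library, on the scale of the fit, for 49 members (38.3% of all genes). Among the markers of other cells, the summed level of 10 cortical excitatory neuron genes was 5902 to 7267 CPM in cortex and 384 to 794 CPM in control tumours, and that of 10 microglia and macrophage genes was 521 to 610 CPM and 2846 to 6119 CPM, with none of either list at 0 reads in these libraries. In such bulk tissue a change in the share of a cell type and a change of RNA per cell cannot be told apart.

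**Figure D1:**
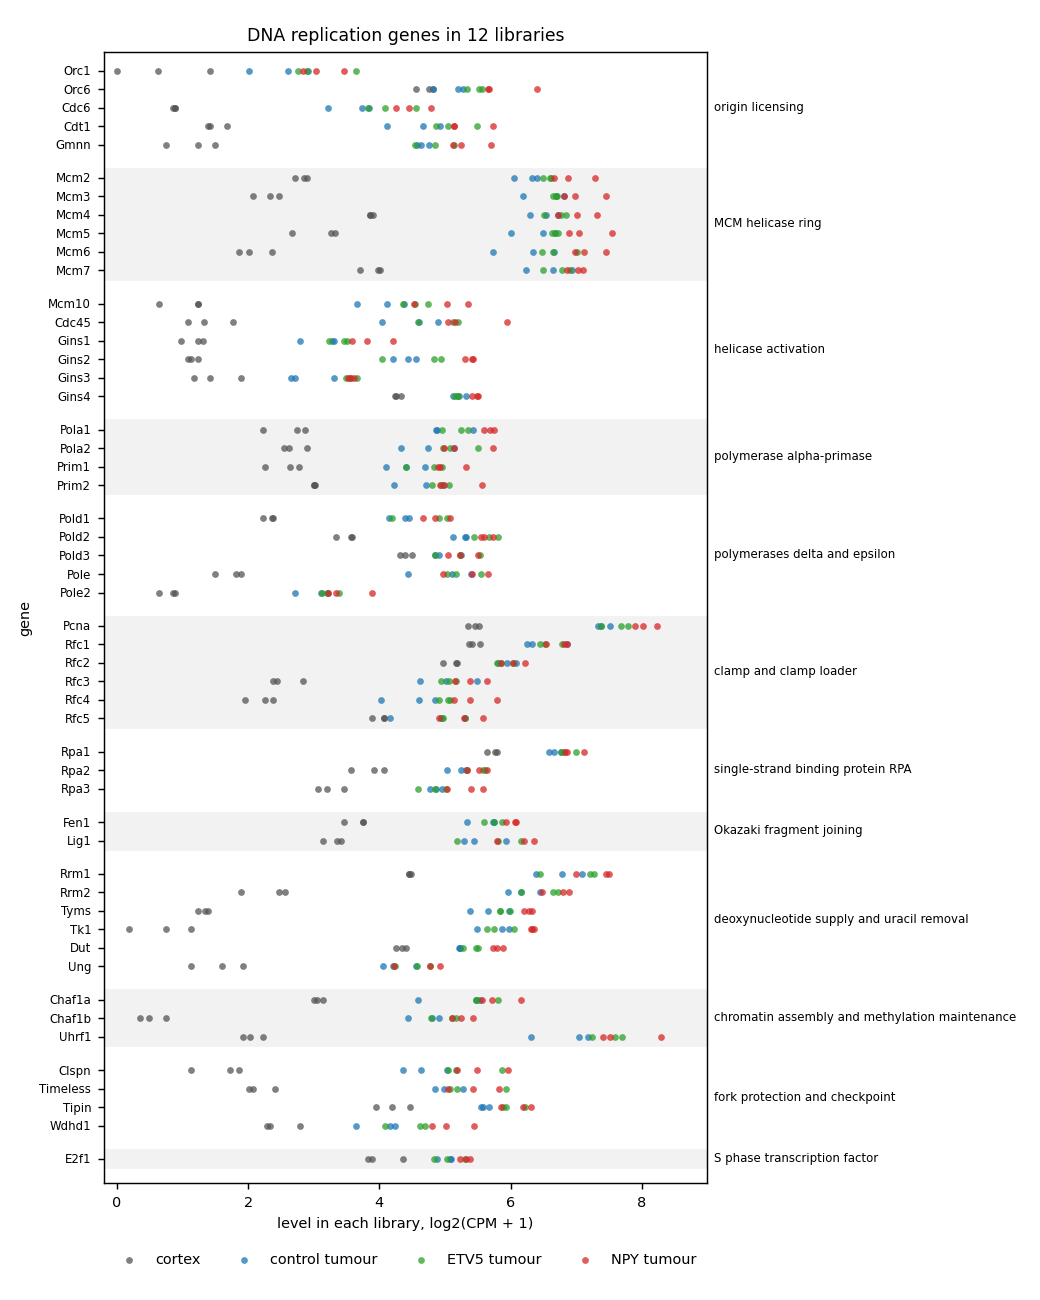
Level of each of the 51 genes in each of the 12 libraries, as log2(CPM + 1), grouped by role. Each point is 1 library, coloured by group; for all 51 genes the cortex points stand to the left of all tumour points on this scale, and for Orc6 and Rfc5, which overlap on the scale of the fit, the gap is narrow.

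Among the licensing factors, 4 of 5 rose. Geminin, the licensing inhibitor, was at 1.34, 0.67 and 1.81 CPM in cortex and at 26.1, 22.8 and 23.9 CPM in the control tumours (4.05 on the log2 scale, SE 0.34, adjusted p = 1.21e-05). Cdc6, the loading ATPase, was at 0.81 to 0.84 CPM in cortex and 8.30 to 13.3 CPM in control tumours (log2 fold change 3.40, adjusted p = 2.14e-05), and Cdt1, its partner, rose by a log2 fold change of 3.39. For these 3 genes no control tumour came near the cortex range. Orc1, the largest subunit of the origin recognition complex, had 4, 0 and 12 reads in the cortex libraries and 48, 59 and 19 in the control tumours, so its change of 3.04 (SE 0.89, adjusted p = 0.0139) has the largest standard error among the members. Orc6, the smallest subunit of that complex, did not pass: it was at 22.6, 26.2 and 27.1 CPM in cortex and at 35.7, 37.5 and 27.3 CPM in control tumours (0.22, SE 0.18, adjusted p = 0.290). Control replicate 3 lay at the cortex level, and without it Orc6 was called (0.39, adjusted p = 0.0428).

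All 6 genes of the MCM ring rose. Mcm3 was at 3.22, 4.53 and 4.04 CPM in cortex and 111.9, 102.9 and 71.8 CPM in control tumours (log2 fold change 4.38, SE 0.23, adjusted p = 1.44e-06). Mcm6 had 4.16, 3.02 and 2.64 CPM in cortex and 100.2, 80.2 and 52.2 CPM in control tumours (4.32, SE 0.28). Mcm2 changed by 3.44, Mcm5 by 3.29, Mcm7 by 2.61 and Mcm4 by 2.55. The ring was also more even in the tumours: because its subunits are built into 1 hexamer, their levels were compared per kb of exon within each library. The highest subunit was 5.24, 5.91 and 8.40 times the lowest in the cortex libraries, where Mcm7 was highest and Mcm6 lowest each time, and 1.71, 2.24 and 2.15 times in the control tumours. In the other tumours this ratio was between 1.33 and 1.98, so no tumour library overlapped the cortex range. Mcm6 and Mcm3, the lowest per kb in cortex, changed most, and Mcm4 and Mcm7, the highest there, changed least.

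The genes that activate and run the helicase rose too, 6 of 6. Gins2, a GINS subunit, was at 1.34, 1.17 and 1.11 CPM in cortex and at 20.8, 22.6 and 17.4 CPM in control tumours (log2 fold change 3.76, SE 0.25, adjusted p = 3.99e-06). Mcm10, which assists firing, changed by 3.62 and Cdc45 by 3.50. Within GINS the changes were unequal: Gins1 changed by 2.35, Gins3 by 1.61 and Gins4 by 0.81 (SE 0.13, adjusted p = 0.000599), and Gins4 was the GINS subunit with by far the most signal per kb in cortex, 13.6 CPM per kb against 0.31 to 1.16 for the other GINS genes.

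Polymerases followed the same split between subunits. Of the alpha-primase genes, all 4 rose, from Prim2, the large primase subunit, at 1.57 (SE 0.23) to Pola1, the catalytic subunit, at 2.46 (SE 0.26, adjusted p = 4.82e-05). Pole, the catalytic subunit of epsilon, was at 2.69, 2.52 and 1.81 CPM in cortex and 33.4, 41.1 and 20.7 CPM in control tumours (3.49, SE 0.31, adjusted p = 1.80e-05), and Pole2 changed by 2.92. Pold1, the catalytic subunit of delta, changed by 2.05 and Pold2 by 1.66. Pold3, an accessory subunit of delta, stood at 18.8, 21.6 and 19.9 CPM in cortex and at 27.7, 37.0 and 29.2 CPM in control tumours, a small change (0.45, SE 0.17, adjusted p = 0.0401) that lay close to the threshold. Without cortex replicate 1, 2 or 3 or control replicate 2 it was no longer called (adjusted p between 0.0523 and 0.129), nor without the filter on low values (0.0502) or with all groups in 1 fit (0.0813).

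The clamp Pcna was the member with the highest level per kb in all 4 groups. It was at 42.9, 44.95 and 39.8 CPM in cortex and at 166.4, 181.3 and 160.2 CPM in control tumours (log2 fold change 1.82, SE 0.12, adjusted p = 3.65e-06). Of its loader, Rfc3 (2.51, SE 0.28) and Rfc4 (2.39, SE 0.28) rose most, and Rfc1 (0.88) and Rfc2 (0.68) rose less. Rfc5 was at 13.8, 15.8 and 15.9 CPM in cortex and at 29.7, 38.7 and 16.9 CPM in control tumours, and did not pass (0.65, SE 0.30, adjusted p = 0.0796). As for Orc6, control replicate 3 was the library near the cortex range, and without it Rfc5 was called (1.01, adjusted p = 0.00116). The 3 RPA genes rose by 0.78 for Rpa1, 1.23 for Rpa2 and 1.54 for Rpa3 (SE 0.18), and the Okazaki enzymes by 1.85 for the flap nuclease Fen1 (SE 0.18) and 2.19 for the ligase Lig1 (SE 0.21).

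The widest changes were in nucleotide supply and in the packaging of new DNA. Tk1, the S phase thymidine kinase (chr11:117815526-117826092, mm10, GENCODE M21), had 5, 7 and 1 reads in the cortex libraries, or 0.67, 1.17 and 0.14 CPM, and 61.8, 57.6 and 43.7 CPM in control tumours. Its log2 fold change of 6.22 (SE 0.55, adjusted p = 1.56e-05) was the largest of the 51. Tyms, thymidylate synthase, changed by 4.78 (SE 0.24), Rrm2, the small subunit of ribonucleotide reductase, by 3.99 (SE 0.26) and Rrm1, its large subunit, by 2.17. Dut, which clears dUTP, changed least in this role, by 0.75 (SE 0.13, adjusted p = 0.000813), from 18.1 to 20.1 CPM in cortex to 36.0 to 36.5 CPM in control tumours. Chaf1b, a subunit of the histone chaperone CAF-1, had 2 to 4 reads in the cortex libraries and was at 26.9, 29.1 and 20.7 CPM in control tumours (5.36, SE 0.35, adjusted p = 3.64e-06), while its partner Chaf1a changed by 2.09. Uhrf1, which brings the maintenance methyltransferase to new DNA, went from 3.09, 3.69 and 2.78 CPM to 144.2, 131.5 and 78.2 CPM (4.95, SE 0.26, adjusted p = 1.48e-06). Of the fork protection genes, the checkpoint mediator Clspn changed by 3.42 (SE 0.34), Timeless by 2.99, Wdhd1 by 1.54 and Tipin, the partner of Timeless, by 1.27 (SE 0.17). E2f1, a transcription factor of S phase entry, was at 13.2, 19.5 and 13.8 CPM in cortex and 33.0, 32.8 and 28.6 CPM in control tumours (0.87, SE 0.20, adjusted p = 0.00428).

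**Figure D2:**
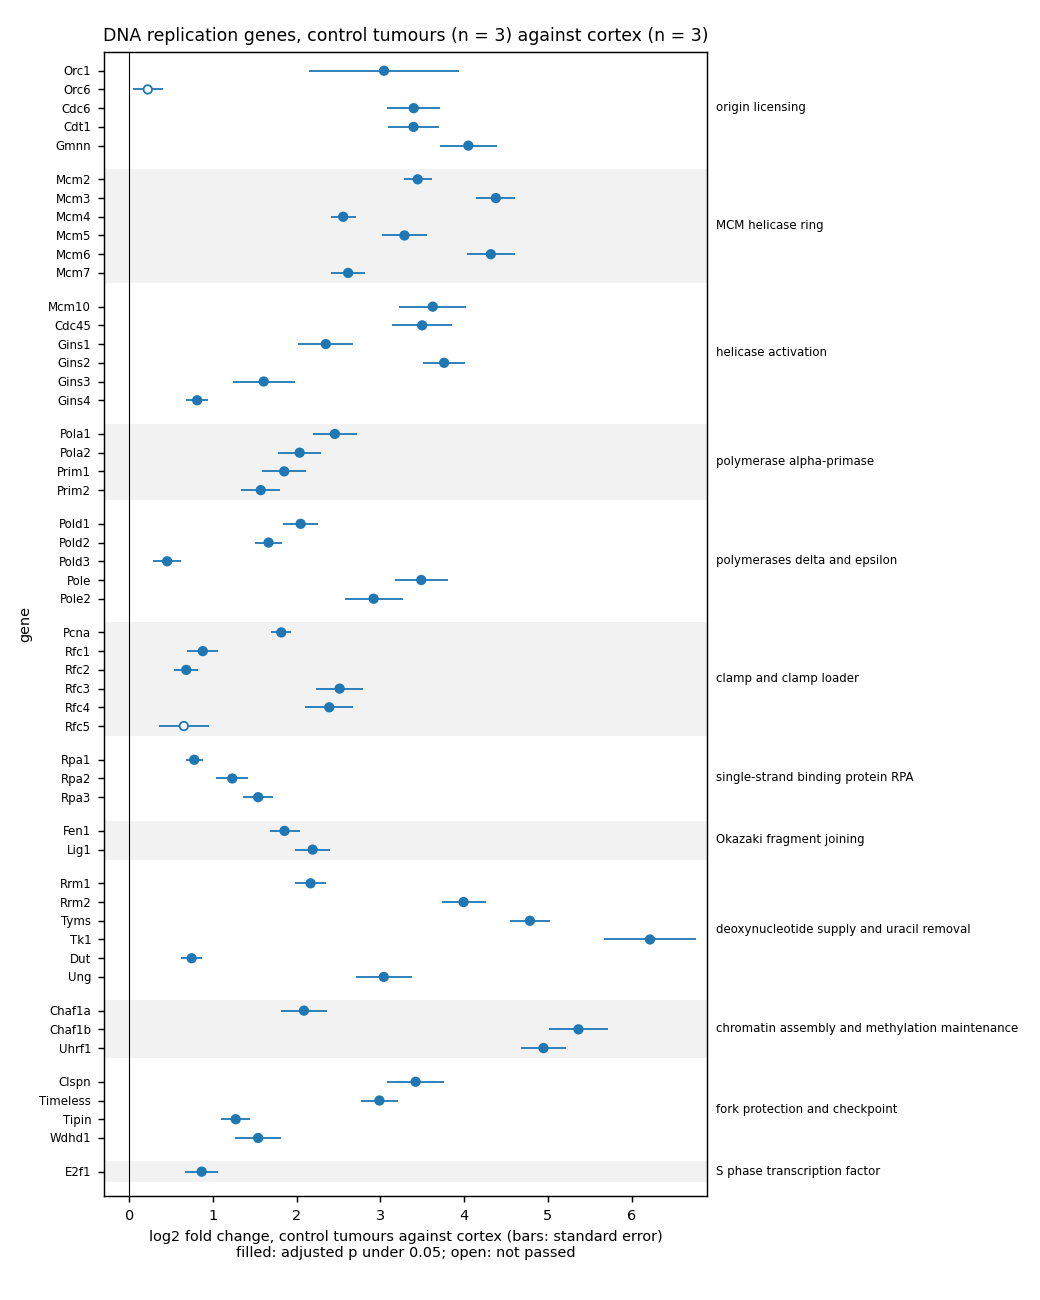
Log2 fold change of each member in control tumours against cortex, with its standard error, by role; filled points passed the adjusted p of 0.05. All 51 points lie to the right of 0, from Orc6 at 0.22 to Tk1 at 6.22, and the 2 open points are Orc6 and Rfc5.

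The size of a change went with how much of the transcript the cortex already had. The 34 members under 10 CPM on average in cortex were all called higher, with a median log2 fold change of 3.16 and changes from 1.54 to 6.22. Of the 17 members at 10 CPM or more in cortex, 15 were called, with a median of 0.88 and changes from 0.22 to 2.61. The cortex level enters the fold change itself, so this is a description of the members and not a test. The ranks per kb of exon moved for some members and not for others. Orc6 was in place 2 of 51 in cortex and 16 in control tumours, and Tk1 in place 43 and 3. Pcna kept place 1, while Cdc6 (51 and 50), Mcm10 (50 and 47) and Orc1 (48 and 51) stayed near the bottom.

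Subunits and enzymes outside the 51 members give the contrast within complexes. Of the other 58 replication genes of the list, 40 were called higher in control tumours, 3 lower and 15 neither, with a median log2 fold change of 0.91 and against the same shares of all genes as above. The 3 largest rises were those of Ticrr, which is needed for origin firing (5.09, SE 0.59), Top2a, the topoisomerase of dividing cells (5.04, SE 0.23), and Asf1b, a histone chaperone (5.04, SE 0.28). Beside Orc1, the origin recognition subunits Orc2 (0.17), Orc3 (-0.16) and Orc4 (-0.24) did not pass and Orc5 was called lower (-0.49, SE 0.15, adjusted p = 0.0150; 0.0637 without cortex replicate 3). Pole3, a histone-fold subunit of epsilon, rose by 1.24, and its partner Pole4 did not pass (-0.21, adjusted p = 0.178). Nme1, a nucleoside diphosphate kinase, was called lower (-0.61, SE 0.11, adjusted p = 0.000925). Rrm2b, the small reductase subunit that also serves non-dividing cells, was at 41.4, 35.6 and 39.7 CPM in cortex and 14.9, 18.9 and 24.3 CPM in control tumours (-1.20, SE 0.18, adjusted p = 0.000375). Per kb of exon, Rrm2 was 0.135, 0.265 and 0.255 times Rrm2b in the cortex libraries and 12.1, 7.76 and 5.24 times Rrm2b in the control tumours. In the ETV5-labelled and NPY-labelled tumours that ratio was 7.75 to 16.8, and no tumour library overlapped the cortex.

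**Figure D3:**
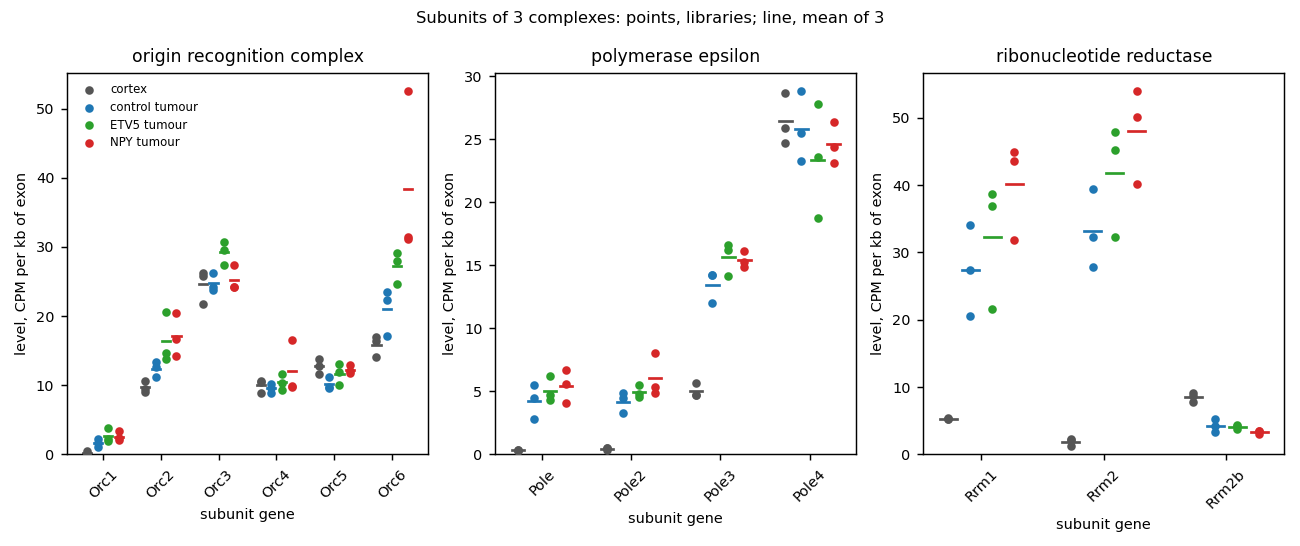
Levels, in CPM per kb of exon, of the subunit genes of the origin recognition complex, polymerase epsilon and ribonucleotide reductase; points are libraries, lines are means of 3. Orc1, Pole, Pole2, Rrm1 and Rrm2 are near the bottom of their panels in cortex and higher in the tumours, while Rrm2b is higher in cortex. Orc1 stays near the bottom of its panel in the tumours too, at means of 1.62 (control), 2.63 (ETV5-labelled) and 2.57 (NPY-labelled) CPM per kb.

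Since most members moved together, their promoters were searched for short sequence motifs. RefSeq promoters (GRCm38.p6, from 250 bases before the start to 50 after it) were matched by symbol for 42 of the 51 members, 48 promoters in all. E2F-like words, searched as TTCCCGC, or TTCGCGC, or TTGCCGC, or TTGGCGC on both strands, were present in 30 of the 48 (62.5%), in 9.57% of all 32851 promoters and in 15.8% of promoters of the genes tested. In the 250 bases before the start alone these shares were 41.7%, 7.89% and 13.1%. The GC box GGGCGG was in 72.9% of the member promoters, 35.7% of all promoters and 60.6% of those of the genes tested, the CCAAT box (CCAAT) in 54.2%, 37.4% and 37.0%, and the CHR word TTTGAA in 10.4%, 17.9% and 11.8%, all on both strands. E2F-like words can overlap each other. The 27 members with an E2F-like match changed by a median of 2.46 in control tumours against cortex and the 15 without by 2.04, with ranges of 0.45 to 5.36 and 0.22 to 6.22 that overlap nearly throughout. Windows of 200 bases before the start are printed below for 6 members with a match there, chosen to show a ring subunit pair, licensing factors, a polymerase and Uhrf1 (the first of its 2 promoters), and for Tk1, which changed most and has no such match in this window. Capitals mark E2F-like words, and the last base printed is next to the start:
Mcm5, chr8:75109309-75109508, plus strand: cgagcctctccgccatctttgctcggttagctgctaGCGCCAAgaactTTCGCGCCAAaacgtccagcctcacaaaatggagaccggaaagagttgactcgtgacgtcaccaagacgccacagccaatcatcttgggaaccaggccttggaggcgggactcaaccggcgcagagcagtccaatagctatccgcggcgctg
Mcm6, chr1:128359706-128359905, minus strand: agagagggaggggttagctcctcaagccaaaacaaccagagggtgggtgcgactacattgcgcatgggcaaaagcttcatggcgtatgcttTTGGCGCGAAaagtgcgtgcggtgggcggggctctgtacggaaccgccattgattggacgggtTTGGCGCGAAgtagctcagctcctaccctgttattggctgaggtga
Orc1, chr4:108579254-108579453, plus strand: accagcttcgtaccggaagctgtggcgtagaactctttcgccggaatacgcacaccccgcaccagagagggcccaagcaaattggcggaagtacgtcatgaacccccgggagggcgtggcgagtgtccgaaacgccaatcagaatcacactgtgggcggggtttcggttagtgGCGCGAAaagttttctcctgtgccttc
Cdc6, chr11:98907951-98908150, plus strand: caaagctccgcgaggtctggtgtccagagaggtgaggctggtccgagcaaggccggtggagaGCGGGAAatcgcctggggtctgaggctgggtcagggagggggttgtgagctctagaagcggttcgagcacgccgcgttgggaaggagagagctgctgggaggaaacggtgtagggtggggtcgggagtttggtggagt
Pola1, chrX:93632156-93632355, minus strand: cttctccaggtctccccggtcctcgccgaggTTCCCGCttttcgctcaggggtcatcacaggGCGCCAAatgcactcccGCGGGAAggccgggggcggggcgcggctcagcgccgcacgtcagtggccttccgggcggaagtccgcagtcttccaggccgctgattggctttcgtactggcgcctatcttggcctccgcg
Uhrf1, chr17:56303137-56303336, plus strand: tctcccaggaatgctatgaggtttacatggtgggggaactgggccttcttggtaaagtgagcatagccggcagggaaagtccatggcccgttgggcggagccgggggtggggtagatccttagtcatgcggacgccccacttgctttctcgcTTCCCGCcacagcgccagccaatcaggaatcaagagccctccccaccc
Tk1, chr11:117826015-117826214, minus strand: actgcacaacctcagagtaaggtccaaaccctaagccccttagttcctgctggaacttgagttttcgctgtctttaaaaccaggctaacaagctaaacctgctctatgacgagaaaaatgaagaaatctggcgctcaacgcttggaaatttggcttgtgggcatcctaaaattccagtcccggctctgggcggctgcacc

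The windows differ in number and place of matches. Mcm6 has 4 matches in its window, which overlap pairwise in 2 places on both strands, Mcm5 and Pola1 have 3 each, and Orc1, Cdc6 and Uhrf1 have 1. A match describes letters only, and no binding was measured here.

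The machinery was also higher than cortex in the tumours with an added gene. In ETV5-labelled tumours 51 of 51 members were called higher (31.8% of all genes), 42 of them at least 2-fold (22.9%), with a median log2 fold change of 2.58 that ran from Orc6 at 0.60 (SE 0.16) to Tk1 at 6.24 (SE 0.60). With 1 library left out, 48 to 51 were called, and Orc6 was not called without cortex replicate 1 (adjusted p = 0.0674). In NPY-labelled tumours 51 of 51 were called higher (35.6%), 49 at least 2-fold (25.8%), with a median of 3.03 and a range from Pold3 at 0.75 (SE 0.16) to Tk1 at 6.80 (SE 0.56). The 3 comparisons with cortex share their cortex libraries, so they are not independent of each other.

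Between ETV5-labelled and control tumours no member passed the test. Among 14382 genes tested 0 were called by limma (lowest adjusted p = 0.732), so 0% of all genes were called higher, and 944 genes had an unadjusted p under 0.05. DESeq2 called 70 genes, of which 0 were members. The members' fitted changes were above 0 for 48 of 51 (48.1% of all genes), with a median of 0.27, and 2 members had an unadjusted p under 0.05 and a higher level (1.89% of all genes). With 1 library left out, 0 to 5 members had an unadjusted p under 0.05. For 6 members every ETV5-labelled tumour lay above every control tumour on the scale of the fit (6.26% of all genes): Cdc6, Gins3, Pold2, Rfc4, Tipin and Uhrf1. The members with the lowest p were Tipin, Gins3 and Clspn. Tipin was at 46.1, 49.8 and 46.9 CPM in the controls and 59.7, 73.4 and 58.0 CPM in the ETV5-labelled tumours (0.40, SE 0.16, 95% interval 0.03 to 0.77, adjusted p = 0.732). Gins3 was at 8.90, 5.28 and 5.59 CPM and at 10.2, 11.7 and 10.8 CPM (0.74, SE 0.30, adjusted p = 0.732), and Clspn at 31.9, 23.9 and 19.5 CPM and at 31.9, 57.5 and 34.8 CPM (0.69, SE 0.30, adjusted p = 0.732). Below 0 were Gins4 (-0.05), Rfc2 (-0.06) and Rpa3 (-0.05), none of which passed. Control replicate 3 weighed on the median: without it the median was 0.15 and 40 of 51 members were above 0. ETV5 replicate 3 carries another library code prefix in the labels (EC) than the rest of this comparison (DS), and without it the median was 0.26, with 46 of 51 above 0 and 0 called.

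Between NPY-labelled and control tumours, 3 members were called higher and 0 lower, where 0.728% of the 14425 genes tested were called higher. Gins2 (chr8:120578633-120589304, mm10) was at 20.8, 22.6 and 17.4 CPM in the controls and at 38.4, 42.1 and 41.4 CPM in the NPY-labelled tumours, 2.13-fold higher (log2 fold change 1.09, SE 0.17, adjusted p = 0.0230). Dut (chr2:125247190-125258608) was at 36.0, 36.4 and 36.5 CPM and at 54.6, 52.5 and 58.1 CPM, 1.604-fold higher (0.68, SE 0.13, adjusted p = 0.0331). Pcna (chr2:132249162-132253314) was at 166.4, 181.3 and 160.2 CPM and at 259.1, 299.0 and 238.6 CPM, 1.66-fold higher (0.73, SE 0.15, adjusted p = 0.0422). In each of these 3 genes all NPY-labelled tumours lay above all controls. Wdhd1, which links the helicase to polymerase alpha, had the largest fitted change and just missed the threshold: it was at 17.8, 16.8 and 11.5 CPM and at 31.3, 42.7 and 26.9 CPM (1.21, SE 0.27, adjusted p = 0.0538).

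The other members lay in the same direction without passing the test. These controls are the same libraries as in the ETV5 comparison. All 51 fitted changes were above 0 (53.2% of all genes), from Rfc2 at 0.18 (SE 0.16, adjusted p = 0.562) to Wdhd1, with a median of 0.65. For 38 of 51 members every NPY-labelled tumour lay above every control on the scale of the fit (15.8% of all genes). An unadjusted p under 0.05 and a higher level was found for 36 members (10.4%), and for 21 without control replicate 3. For some of the roles, the median was 0.94 (helicase activation), 0.88 (licensing), 0.69 (MCM ring) and 0.47 (polymerases delta and epsilon). The medians of the other roles are not listed here, so 0.47 need not be the lowest. DESeq2 called 16 members higher, where it called 3.51% of all genes higher. They were Cdc6, Clspn, Dut, Gins2, Gmnn, Mcm10, Mcm2, Mcm5, Mcm6, Orc6, Pcna, Rfc4, Tipin, Tk1, Tyms and Wdhd1. The calls rest on 3 libraries a side: without control replicate 1, 2 or 3 or NPY replicate 1 or 3 limma called 0 members, without NPY replicate 2 it called 2, and all 51 changes stayed above 0 in each case, with medians of 0.54 to 0.74. Among the other 58 replication genes, the histone chaperone Nasp was called higher (0.90, SE 0.14, adjusted p = 0.0237).

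All NPY libraries carry the code prefix EC and all controls DS, and the labels do not say what the prefix stands for, so the NPY label and the prefix cannot be told apart in this comparison. All cortex libraries carry DS too, so the same holds for NPY-labelled tumours against cortex. ETV5 replicate 3, the tumour outside the NPY group with the prefix EC, had a median level over the members of 0.28 (log2) relative to the control mean. ETV5 replicates 1 and 2, with the prefix DS, were at 0.25 and 0.33, and the NPY-labelled tumours at 0.53, 0.77 and 0.50. A single library with another label cannot separate prefix from label, and the part of the prefix was not tested.

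**Figure D4:**
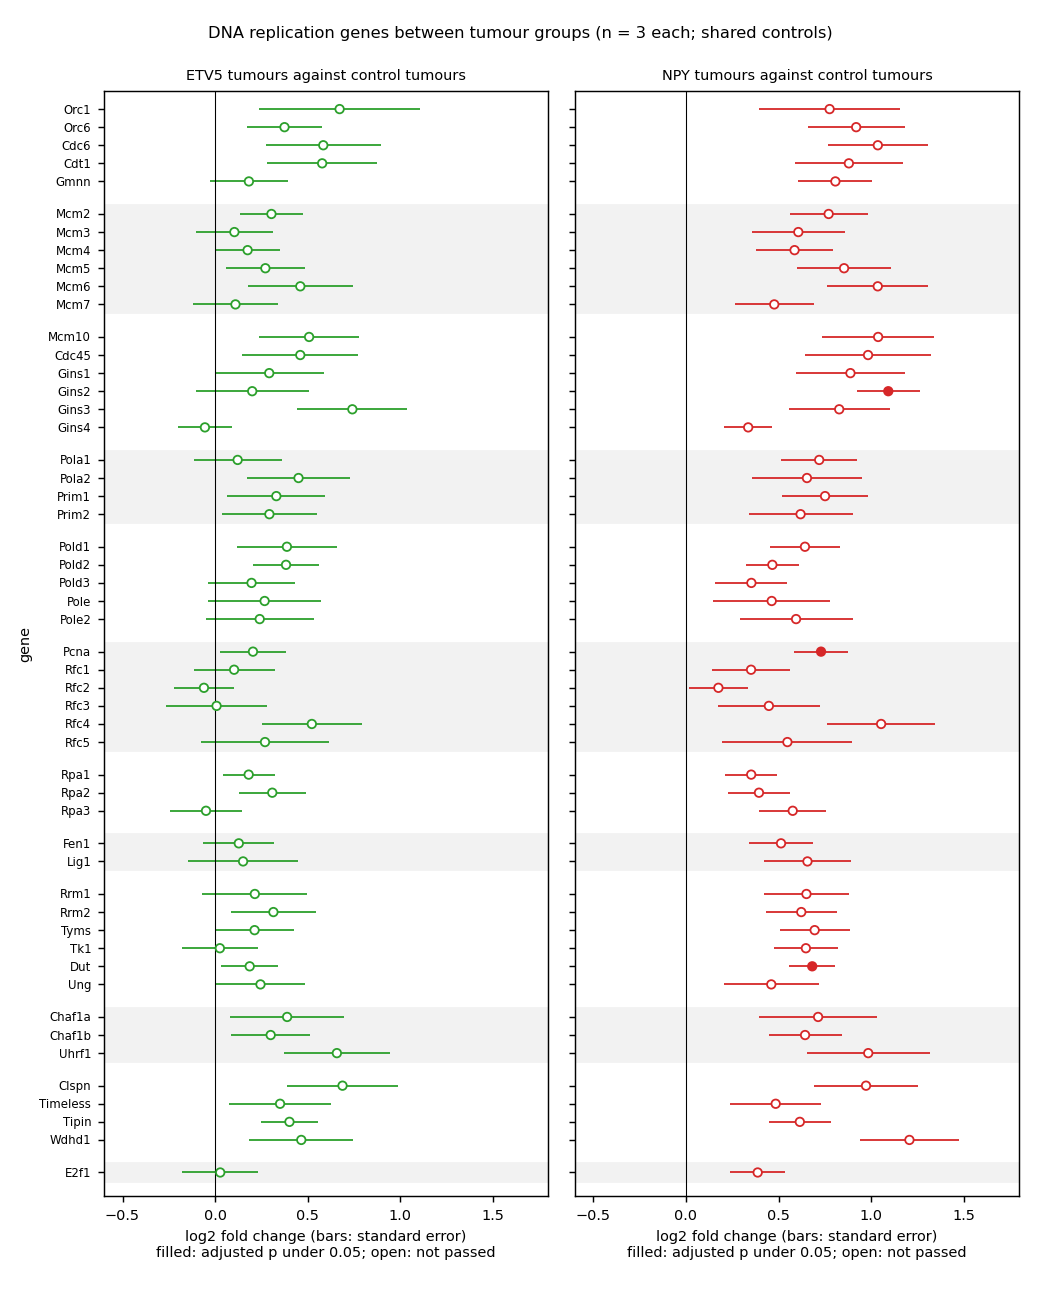
Log2 fold change and standard error of each member in ETV5-labelled (left) and NPY-labelled tumours (right) against the same control tumours. On the left no point is filled and 48 of 51 lie above 0; on the right Gins2, Pcna and Dut are filled and all 51 lie above 0.

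Set against each other directly, ETV5-labelled and NPY-labelled tumours showed no called member. Limma called 0 of 14023 genes, so 0% were called lower in ETV5-labelled tumours (lowest adjusted p = 0.0828 over all genes and 0.793 over the members), and 831 genes had an unadjusted p under 0.05. DESeq2 called 53 genes and 0 members. All 51 fitted changes were below 0, where 48.3% of all genes were above 0, and the median was -0.35. ETV5 replicates 1 and 2 carry the prefix DS, while ETV5 replicate 3 and all NPY libraries carry EC. Label and prefix are thus partly confounded in this comparison. With 1 library left out, up to 5 members were above 0: 4 without ETV5 replicate 1 or 3, 5 without NPY replicate 2 and 2 without NPY replicate 3. For 22 members every ETV5-labelled tumour lay below every NPY-labelled tumour on the scale of the fit (6.77% of all genes). An unadjusted p under 0.05 and a lower level was found for 11 members (2.69%); in either direction it was found for 3 members without ETV5 replicate 2 or NPY replicate 1, 4 without NPY replicate 2 and 7 without ETV5 replicate 3. The lowest p values belonged to Tk1 (-0.58, 95% interval -0.99 to -0.17), Tyms (-0.44) and Pola1 (-0.56), each with an adjusted p of 0.793. Tk1 was at 65.1, 49.2 and 52.5 CPM in ETV5-labelled tumours and 80.9, 79.3 and 78.5 CPM in NPY-labelled tumours, without overlap. The difference was largest for Gins2, at 29.8, 15.4 and 27.6 CPM in ETV5-labelled tumours (-0.85, SE 0.29, 95% interval -1.55 to -0.15), and smallest for Pold2 (-0.04). In mean CPM the order control, ETV5-labelled, NPY-labelled held for 43 of 51 members, although no member was called between neighbours in that order, and 3 were called between its ends. The share of all genes in this order was not counted, so the 43 has no baseline.

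The position of single libraries within the groups was uneven. Control replicate 3 was the lowest of the 3 controls for 37 of 51 members and the lowest of all 9 tumours for 34, and NPY replicate 2 was the highest of all 9 for 34. These positions were not counted over all genes, and control replicate 3 also had the fewest reads of the tumour libraries, 6266613. The median level over the members relative to the control mean was 0.09, 0.13 and -0.27 in the controls, 0.25, 0.33 and 0.28 in ETV5-labelled tumours, 0.53, 0.77 and 0.50 in NPY-labelled tumours, and -2.27 to -2.16 in cortex. The 20 genes of mitosis, a later stage of the same cycle, moved alongside. All 20 rose in control tumours against cortex (median 4.48), where 35.7% of all genes were called higher. In NPY-labelled against control tumours all 20 were above 0 (median 0.75), where 53.2% of all genes were above 0. Cdk1 and Kif11 were called there, where 0.728% of all genes were called higher. With 1 library left out, the 105 genes called higher in that comparison became 0 to 69.

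Markers of other cell types also differed between the tumour libraries, but not always alongside the replication genes. ETV5 replicate 2 had the highest replication median of its group, 0.33, and also its highest excitatory neuron sum, 459 CPM. The summed excitatory neuron genes were at 384, 489 and 794 CPM in the controls, with replicate 3 highest, at 58.7, 459 and 179 CPM in ETV5-labelled tumours and at 69.1, 58.3 and 51.1 CPM in NPY-labelled tumours, where 1 of the 10 genes was at 0 reads in each library. Of those 10 genes, 7 were called lower in NPY-labelled than in control tumours, as were 5 of 8 pan-neuronal genes, 3 of 8 astrocyte genes and 1 of 8 myelin genes, where 4.31% of all genes were called lower. The summed astrocyte genes were at 4049 to 4649 CPM in the controls, 1098 to 4392 CPM in ETV5-labelled and 563 to 1900 CPM in NPY-labelled tumours, and the summed myelin genes at 1817 to 3797, 441 to 1908 and 367 to 1374 CPM. The microglia and macrophage genes were at 2846 to 6119, 1582 to 3256 and 2453 to 5095 CPM, with overlap between all tumour groups, and the lymphocyte genes at 132 to 168, 62.9 to 119 and 155 to 281 CPM. The part of these markers in the differences of the replication genes between tumour groups was not tested.

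**Figure D5:**
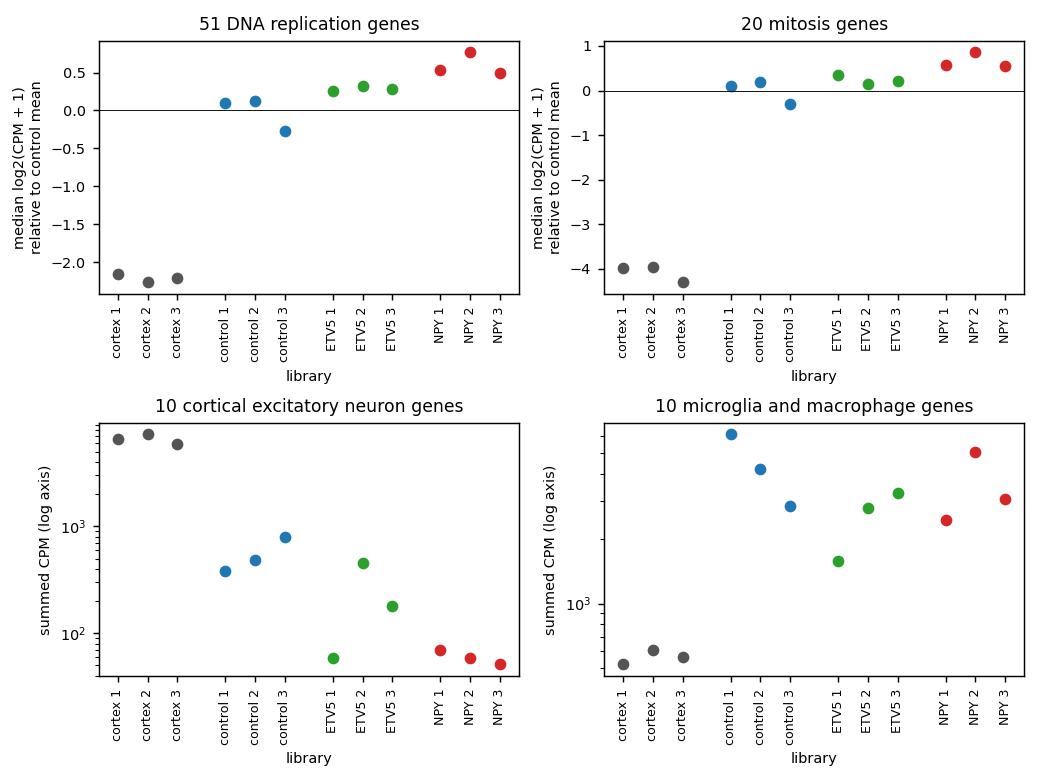
Per library, the median log2(CPM + 1) of the 51 replication genes and of 20 mitosis genes relative to the control mean (top), and the summed CPM of excitatory neuron genes and of microglia and macrophage genes on log axes (bottom). Control replicate 3 has the lowest replication median of the tumours, -0.27, and the highest excitatory neuron sum of the tumours, 794 CPM. Among the ETV5-labelled tumours, replicate 2 has both the highest replication median, 0.33, and the highest excitatory neuron sum, 459 CPM.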

How the data were processed

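PolyA RNA from 4 groups of 3 mouse samples was sequenced from 300 ng of total RNA. Build mm10, the aligner STAR 2.5.0a, DESeq2 1.30.1, FastQC 0.11.7 and MultiQC 1.6 appear in the submitters' processing notes. The counting tool is not given in the sources used here. What the authors deposited is a normalized signal, in which each library's reads were scaled by its own size factor. Dividing by that step gave whole reads for 100% of values (tolerance 0.01 read), which were summed for CPM and used for the filter and for edgeR and DESeq2 as alternatives. One table holds cortex, control and ETV5, the other control and NPY, with identical control reads; comparisons across tables used reads rescaled by median of ratios. limma 3.58.1 (trend, robust, R 4.3.3) was fitted per pair of groups on log2 of the deposited value plus 1 after edgeR's filterByExpr, two-sided, with Benjamini-Hochberg adjustment over all genes tested. It was run on simulated counts in which only a small set of genes changed. That check does not cover the comparisons with cortex, where most genes were called. Alternatives were offsets of 0.25 and 5, no filter, TMM scaling, edgeR 4.0.16, DESeq2 1.42.0, limma-voom, all groups in 1 fit, a replicate block and leaving out each library. Exon lengths are from GENCODE M21. Named are, per role, the largest and smallest change against cortex, all MCM genes, all members called between tumours or else the 3 lowest p, and members that did not pass against cortex; others were added for their role after their values were seen. Members and lists were chosen with earlier results of these data known. Results of some listed genes are not reported here.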

Additional observations from a re-analysis of the deposited data

How the results depend on the processing

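In control tumours against cortex, the count of members called higher stayed between 47 and 51 of 51 under every alternative, and the median log2 fold change of 2.39 was 2.14 with an offset of 5, 2.13 with TMM scaling and 2.24 to 2.57 with 1 library left out. Against cortex, the ETV5 median of 2.58 was 2.41 with an offset of 5, 2.35 with TMM and 2.47 to 2.71 with 1 library left out, and the NPY median of 3.03 was 2.79, 2.69 and 2.84 to 3.12. In NPY-labelled against control tumours, the 3 called members became 16 with DESeq2, 0 with the replicate block and 0 to 2 with 1 library left out, while over all genes the 727 calls became 1775 with DESeq2, 264 with the block and 1 to 571 with 1 library left out. The member median of 0.65 in that comparison was 0.60 with TMM, where 49.9% of all genes were above 0, against 53.2% in the main fit. In ETV5-labelled against control tumours, the median without 1 library was 0.15 to 0.39. All-gene calls were 0 by limma and 70 by DESeq2 there, and 0 and 53 in ETV5-labelled against NPY-labelled tumours (5 with all groups in 1 fit). Changes near 0 switched sign: in ETV5-labelled against control tumours Rfc2 (-0.06) without control replicate 2, with a range of -0.154 to 0.0345 over the libraries left out, and Rpa3 (-0.05) with limma-voom (0.0039) and without ETV5 replicate 2, with a range of -0.176 to 0.0766; in ETV5-labelled against NPY-labelled tumours Pold2 (-0.04) without ETV5 replicate 1 and without NPY replicate 3 (0.0069), with a range of -0.109 to 0.0442. The cause was not tested. Replicate numbers were not shown to pair samples: deviations of same-numbered libraries correlated between -0.41 and 0.37. Promoter windows ending at the start kept the order of the E2F-like shares. Against cortex, members with few cortex reads, such as Tk1 and Orc1, have the least certain changes.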
